A study of Mus musculus with 9 samples.

Results

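The miRNAs of the miR-23, miR-27 and miR-24 families are made from a pair of paralogous gene clusters, and 7 of the mature products were followed in mouse liver, chosen by name as 7 of the 1140 rows of the miRNA count table (1106 rows carry names of known mouse miRNAs). They were mmu-miR-23a-3p, mmu-miR-27a-3p and mmu-miR-24-2-5p of the a cluster, mmu-miR-23b-3p and mmu-miR-27b-3p of the b cluster, mmu-miR-24-3p, which both clusters encode, and mmu-miR-3074-5p, which is annotated on the strand opposite miR-24 at both places. The prefix mmu is left out from here on. All 7 passed the filter on low counts in every comparison.

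Livers came from 9 male C57BL/6 mice, 3 per group, each sample from a different mouse. Control mice were injected intraperitoneally with saline for 8 weeks. TAA mice were injected for 8 weeks with thioacetamide (TAA), a hepatotoxin that causes liver injury and fibrosis. Recovery mice had the same 8 weeks of TAA and then 8 weeks without it, so recovery and elapsed time cannot be told apart. The mice carried no engineered allele, and whole liver was sequenced, so that more cells of one type and more miRNA per cell cannot be told apart.

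A miRNA is cut from the stem of a hairpin in a longer primary transcript, which gives a 5p and a 3p product. One of these is usually loaded into an Argonaute protein and directs it to messenger RNAs that pair with the seed, bases 2 to 8 of the miRNA. The hairpins of a cluster lie on 1 primary transcript, so their products start from a shared transcript and can still differ in processing and stability. Members of these families are known in liver biology for work on lipid metabolism, TGF-beta signalling and stellate cells, the cells that lay down scar matrix.

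The sequences below show the seeds of these miRNAs, and how little separates the miR-27 paralogs and the miR-24 5p products. They are given 5′ to 3′ from RefSeq on build GRCm38.p6, with the seed in capitals.
miR-23a-3p: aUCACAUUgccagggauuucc
miR-27a-3p: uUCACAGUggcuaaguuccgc
miR-27b-3p: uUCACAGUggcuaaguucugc
miR-24-3p: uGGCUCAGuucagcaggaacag
miR-24-2-5p: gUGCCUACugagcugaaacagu
miR-24-1-5p: gUGCCUACugagcugauaucagu
The miR-27 paralogs shared a seed and differed by 1 base in their whole length, C19U, counted from 1 at the 5′ end with the base of miR-27a-3p first. No other row shared their seed among the 935 rows of the count table that had a sequence in RefSeq. miR-24-2-5p and miR-24-1-5p, the 5p products of the hairpins in the a and b clusters, shared the first 16 bases and then differed. The mature miR-24-3p was identical from both hairpins, so its reads cannot be divided between the clusters. The RefSeq sequences used here held no entry for miR-23b-3p, so it is not shown and was not compared with miR-23a-3p. How reads that fit several miRNAs were divided is not given in the sources used here.

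The a cluster lies on chromosome 8 and the b cluster on chromosome 13 (GENCODE M21, build GRCm38). On the plus strand of chromosome 8, Mir23a spans chr8:84208518-84208592, Mir27a spans chr8:84208672-84208758 and Mir24-2 spans chr8:84208815-84208921, a stretch of 404 bases. Mir23a and Mir27a overlap no other annotated gene, and the end of Mir24-2 reaches into the first bases of the long noncoding RNA Gm26532. On the plus strand of chromosome 13, Mir23b spans chr13:63300484-63300557, Mir27b spans chr13:63300712-63300784 and Mir24-1 spans chr13:63301208-63301275, a stretch of 792 bases. Mir23b lies in an intron of the protein-coding gene 2010111I01Rik, Mir27b and Mir24-1 overlap annotated exons of that gene, and the whole cluster lies in an intron of Fancc on the opposite strand. The minus-strand hairpins Mir3074-2 (chr8:84208825-84208907) and Mir3074-1 (chr13:63301199-63301283) lie opposite Mir24-2 and Mir24-1.

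**Figure D1:**
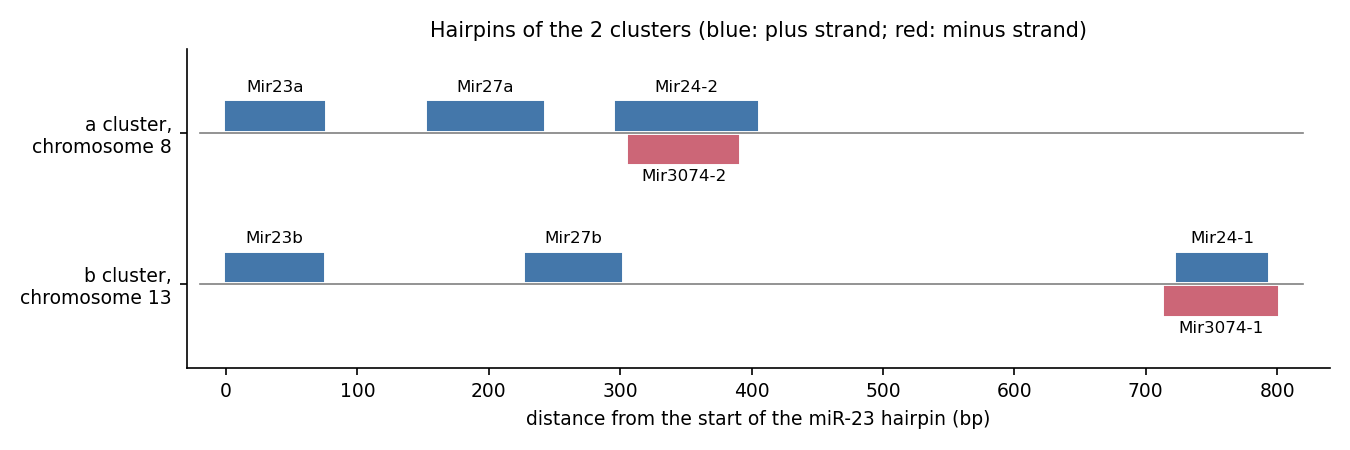
Map of the hairpins of the a cluster (top) and the b cluster (bottom), by distance in bp from the start of Mir23a or Mir23b. Plus-strand hairpins are blue and minus-strand hairpins red; the order miR-23, miR-27, miR-24 is shared, the plus-strand hairpins span 404 and 792 bases, and a miR-3074 hairpin lies opposite each miR-24 hairpin.

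The libraries held 9071847 to 12983378 counts. The factors of TMM, a scaling that takes most miRNAs as unchanged, were 0.738 to 0.792 in control, 1.43 to 1.63 in TAA and 0.766 to 0.887 in recovery mice, with no overlap between TAA and the other groups. Replacing TMM by library totals moved the median log2 fold change of all rows tested. The shift was 1.12 for TAA vs control, -0.86 for recovery vs TAA and 0.19 for recovery vs control. Levels are therefore given as CPM (counts per 1000000 counts after TMM scaling) and compared on both scalings, while ratios of 2 rows within a library do not depend on scaling. The liver marker miR-122 (5p and 3p together) was present at 261943 to 272282 CPM in control mice.

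The b cluster product miR-27b-3p was the most abundant member in every mouse, and the order of the others was the same in control and recovery mice. By mean CPM in control mice, miR-27b-3p was followed by miR-24-3p, miR-27a-3p, miR-23b-3p, miR-23a-3p and miR-24-2-5p, and miR-3074-5p is set apart below because its counts follow miR-24-3p. In TAA mice miR-23a-3p came before miR-23b-3p. In each group the ranges of the 3 mice were separate for every pair of neighbours except miR-23a-3p and miR-23b-3p, whose ranges overlapped. These orders compare counts of molecules of nearly equal length, in which ligation efficiency can differ by sequence.

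The 6 members without miR-3074-5p made up 0.719% to 0.814% of the counts of a control library. They made up 1.49% to 1.66% of a TAA library and 0.713% to 0.835% of a recovery library. Such shares are on the scale of library totals. There the median log2 fold change of all rows tested was 1.23 from control to TAA mice. From TAA to recovery mice it was -0.98. The higher percentage in TAA mice is thus not by itself a rise relative to other miRNAs. miR-27b-3p was 79.0% to 79.4% of the counts of these 6 members in control, 66.0% to 73.5% in TAA and 74.7% to 76.9% in recovery mice. The 3 ranges did not overlap. How many other shares of this kind separate the groups was not counted. This share draws on the same counts as the ratio of miR-27b-3p to miR-27a-3p below and is not a separate result.

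**Figure D2:**
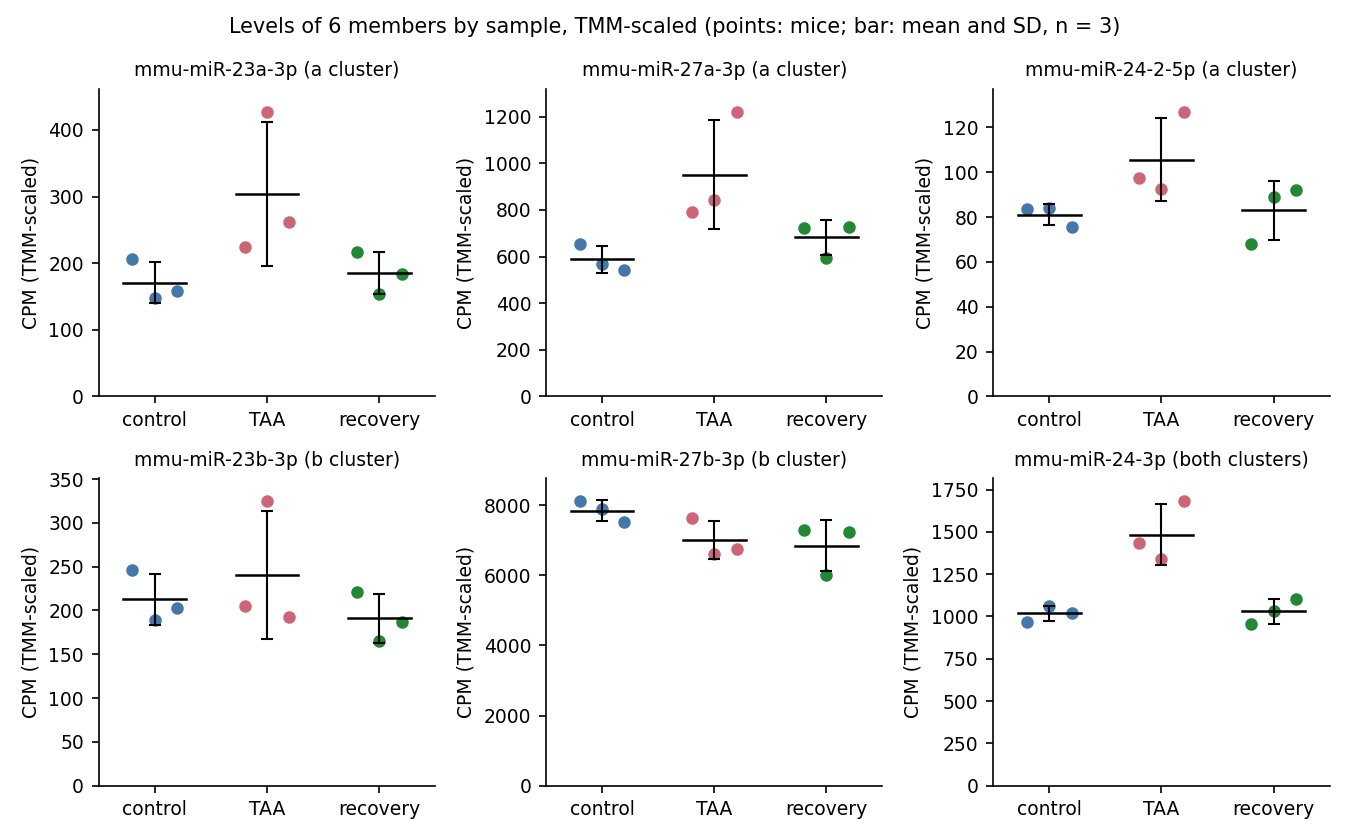
Level of 6 members in CPM (vertical axes from 0, TMM-scaled) in control, TAA and recovery mice; points are mice and the bars give the mean and SD of n = 3. All TAA points of miR-23a-3p, miR-27a-3p, miR-24-2-5p and miR-24-3p lie above all control points, as did 39.3% of all rows tested, whereas those of miR-23b-3p and miR-27b-3p overlap with control.

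On the TMM scale, the 3 members of the a cluster and miR-24-3p had levels in all 3 TAA mice above those of all control mice, and the members of the b cluster overlapped with control. With miR-3074-5p these were 5 of 7 members, and 39.3% of the 420 rows tested also had all TAA values above all control values. miR-23a-3p was at 206, 148 and 158 CPM in control replicates 1 to 3, at 224, 427 and 261 CPM in TAA replicates 1 to 3, and at 217, 154 and 183 CPM in recovery replicates 1 to 3. Every TAA value was above every control and recovery value, and TAA replicate 2 was the highest. miR-27a-3p was at 652, 566 and 544 CPM in control, 792, 843 and 1221 CPM in TAA, and 724, 595 and 728 CPM in recovery mice. Here too no TAA value overlapped with another group, but the highest was replicate 3. miR-24-2-5p, the 5p product of Mir24-2, was at 83.6, 83.9 and 75.7 CPM in control, 97.6, 92.4 and 127 CPM in TAA, and 68.1, 89.0 and 92.0 CPM in recovery mice. The lowest TAA mouse exceeded the highest recovery mouse by less than 1 CPM.

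In the b cluster, miR-23b-3p was at 246, 189 and 203 CPM in control, 205, 325 and 192 CPM in TAA, and 221, 165 and 187 CPM in recovery mice. The 3 groups overlapped, and TAA replicate 2 was again the highest. miR-27b-3p was at 8115, 7891 and 7520 CPM in control, 7626, 6609 and 6760 CPM in TAA, and 7289, 6005 and 7235 CPM in recovery mice. The recovery mice lay below all control mice, and TAA overlapped with both. miR-24-3p, the product of both clusters, was at 970, 1064 and 1019 CPM in control, 1432, 1339 and 1682 CPM in TAA, and 958, 1033 and 1106 CPM in recovery mice. All TAA mice were above all others, whereas control and recovery overlapped. All recovery values lay below all TAA values in 5 of 7 members and in 28.9% of the 440 rows tested. They lay below all control values in 1 of 7 members, miR-27b-3p, and in 9.97% of the 391 rows tested.

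In TAA vs control, 4 of 7 members passed an FDR below 0.05 in the edgeR quasi-likelihood test, against 58.3% of the 420 rows tested. Of these, 3 were higher in TAA (background 31.9%) and 1 was lower (background 26.4%). None reached the study's threshold, which adds a fold change of at least 2, and 41.7% of the rows tested did. A count of 4 of 7 is thus close to the share among all rows.

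miR-27a-3p rose by a log2 fold change of 0.61 (SE 0.20, FDR = 0.0342), or 1.53-fold. miR-24-3p rose by 0.46 (SE 0.13, FDR = 0.0178), or 1.37-fold, and miR-3074-5p gave nearly the same value. miR-27b-3p fell by 0.25 on the log2 scale (SE 0.087, FDR = 0.0383). Each of these calls was lost when any 1 control replicate was left out, with FDR values of 0.0535 to 0.117 for miR-27a-3p, 0.0526 to 0.0698 for miR-24-3p and 0.0523 to 0.126 for miR-27b-3p. That of miR-27b-3p was also lost without TAA replicate 2 (FDR = 0.104) or 3 (FDR = 0.0663), and the log2 fold change of miR-27a-3p was 0.41 (FDR = 0.0439) without TAA replicate 3. The call of miR-27b-3p also had an FDR of 0.136 with no filter on low counts and of 0.567 with a filter of 10 CPM.

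The other members did not pass on this scale. miR-23a-3p had the largest log2 fold change of the members, 0.76 (SE 0.29, FDR = 0.0532), which was 0.40 (FDR = 0.136) without TAA replicate 2. Over 16 alternatives the FDR of miR-23a-3p ran from 0.000877 to 0.161, and 8 of them were below 0.05. miR-24-2-5p had a log2 fold change of 0.30 (SE 0.16, FDR = 0.153), which was 0.16 without TAA replicate 3. That of miR-23b-3p was 0.10 (SE 0.25, FDR = 0.750), and it turned to -0.21 (FDR = 0.343) without TAA replicate 2.

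Under library totals, the scaling of the deposited TPM, every member rose in TAA vs control, and miR-27b-3p turned from lower to higher. All 7 members passed the FDR, against 71.9% of rows that passed as higher, and 6 of 7 also had a fold change of at least 2, against 57.4%. With limma on log2(TPM + 1) it was 6 of 7 as well, against 50% of rows. The log2 fold changes were 1.88 for miR-23a-3p, 1.74 for miR-27a-3p, 1.59 for miR-24-3p, 1.42 for miR-24-2-5p, 1.22 for miR-23b-3p and 0.87 for miR-27b-3p. The order of the members was the same on both scalings. The median of all rows tested was 1.23 on this scale and 0.11 under TMM. On both, miR-27b-3p lay below the median and the 3 a cluster members above it. miR-23b-3p lay just below it, at 1.221 against 1.229 on this scale and 0.101 against 0.113 under TMM.

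In recovery vs TAA, 2 of 7 members passed the FDR, both as lower in recovery, against 39.1% of the 440 rows tested in either direction and 20.7% as lower. They were miR-24-3p, which fell by 0.55 on the log2 scale (SE 0.14, FDR = 0.0192), and its antisense row miR-3074-5p. The call of miR-24-3p was lost without TAA replicate 3 and without any 1 recovery replicate, with FDR values of 0.0589 to 0.111. No member reached a fold change of at least 2 as well, which 24.8% of rows did.

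The log2 fold change of recovery vs TAA was -0.76 (SE 0.28, FDR = 0.0651) for miR-23a-3p and -0.51 (SE 0.20, FDR = 0.0814) for miR-27a-3p. That of miR-23a-3p was -0.35 without TAA replicate 2, and that of miR-27a-3p was -0.26 without TAA replicate 3. miR-24-2-5p and miR-23b-3p were both at -0.37. Without TAA replicate 2 miR-23b-3p was at -0.0081, and miR-24-2-5p was at -0.17 without recovery replicate 1 and at -0.19 without TAA replicate 3. miR-27b-3p was at -0.05 (SE 0.12, FDR = 0.746), and turned to 0.05 without TAA replicate 1 or without recovery replicate 2. Under library totals all 7 members fell, from -1.64 for miR-23a-3p to -0.92 for miR-27b-3p, against 60% of rows that passed as lower, and 6 of 7 also had a fold change of at least 2, against 46.1%. With limma on log2(TPM + 1) it was again 6 of 7, against 35.2% of rows. The median of all rows was -0.98 on that scale and -0.12 under TMM.

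In recovery vs control no member passed the FDR under TMM, where 14.1% of the 391 rows tested did and 11.3% with a fold change of at least 2 as well, or under library totals, where 16.1% did. The count of members at an unadjusted p below 0.05 was also 0 under TMM. The log2 fold changes ran from -0.23 (SE 0.11) for miR-27b-3p to 0.18 (SE 0.12) for miR-27a-3p. miR-23a-3p, miR-24-3p and miR-24-2-5p were within 0.08 of 0, and miR-23b-3p was at -0.19 (SE 0.15).

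**Figure D3:**
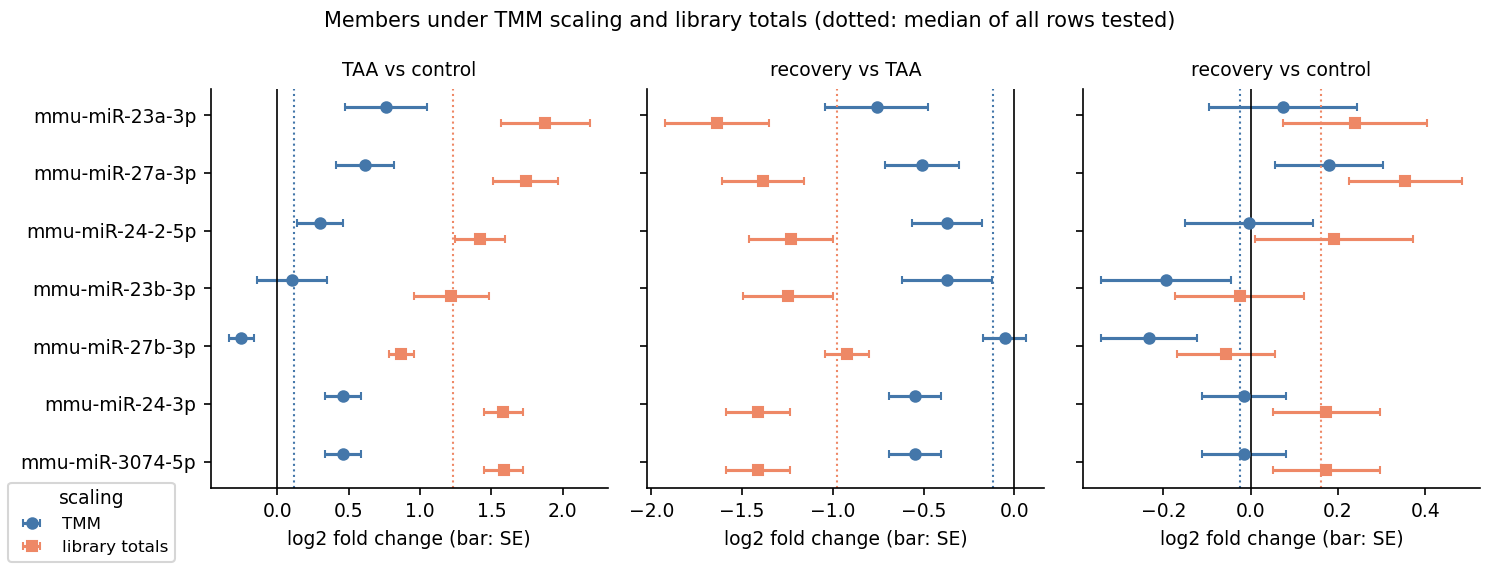
Log2 fold change of the 7 members in the 3 comparisons (horizontal axes, which differ in range; bars are SE), under TMM (blue circles) and library totals (orange squares), with the median of all rows tested as dotted lines. Library totals shift all members by about the same amount, and in TAA vs control miR-27b-3p lies on opposite sides of 0 on the 2 scalings, at -0.25 and 0.87.

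The b paralog made up less of the 3p counts of miR-23 and miR-27 in every TAA mouse than in any control mouse. This comparison does not depend on how libraries are scaled. The ratio of miR-23b-3p to miR-23a-3p counts was 1.19, 1.27 and 1.29 in control, 0.914, 0.761 and 0.737 in TAA, and 1.02, 1.07 and 1.02 in recovery mice. miR-23b-3p was the more abundant paralog in 3 of 3 control mice and the less abundant one in 3 of 3 TAA mice. The ratio of miR-27b-3p to miR-27a-3p was 12.5, 13.9 and 13.8 in control, 9.63, 7.84 and 5.54 in TAA, and 10.07, 10.09 and 9.94 in recovery mice. For both pairs the 3 groups did not overlap, and recovery lay between TAA and control. How many other pairs of rows have ratios that separate the groups in this way was not counted.

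In TAA vs control the mean log2 ratio differed by -0.64 (SE 0.10) for miR-23b-3p to miR-23a-3p and by -0.84 (SE 0.24) for miR-27b-3p to miR-27a-3p. The ratios were thus 0.640 and 0.559 times those in control mice. The differences were 0.37 (SE 0.10) and 0.42 (SE 0.23) for recovery vs TAA, and -0.27 (SE 0.042) and -0.42 (SE 0.053) for recovery vs control. Each of these 6 differences had p = 0.1 in the exact two-sided permutation test, the smallest p that 3 against 3 mice allow, and 0.15 after adjustment over 9 ratio comparisons, so none could pass 0.05.

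An exact permutation test over all 1680 assignments of the 9 mice to 3 groups gave p = 0.00357 for each of these pairs, the smallest it can give, and 0.00536 after adjustment over 3 ratios. Without 1 replicate at a time this p was at most 0.00714 for miR-23 and 0.0179 for miR-27. The members in these pairs were chosen with earlier results of these data known, which this p does not take into account. The SD of the miR-27 ratio was 0.825 in control, 2.05 in TAA and 0.0804 in recovery mice, and the difference in spread was not tested.

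The 5p products of the miR-24 hairpins, the only reads that separate Mir24-1 from Mir24-2, had a ratio of miR-24-1-5p to miR-24-2-5p of 0.0860, 0.0708 and 0.0545 in control, 0.0563, 0.0416 and 0.0407 in TAA, and 0.0895, 0.0444 and 0.0448 in recovery mice. The groups overlapped, and counts of miR-24-1-5p were 31 to 89 per mouse. The log2 ratio in TAA vs control was -0.61 (SE 0.24, exact permutation p = 0.2), and the exact test over 3 groups gave p = 0.25. The share of miR-24-1-5p in the sum of both was 3.91% to 8.21%. The 5p products of the miR-27 hairpins did not separate the groups as the 3p products did. Their ratio, miR-27b-5p to miR-27a-5p, was 0.408 to 0.735 in control, 0.442 to 0.660 in TAA and 0.590 to 0.718 in recovery mice. The groups overlapped, and no test was run, so a difference is not excluded. The mean ratio was lowest in TAA mice, 0.547, against 0.625 in control and 0.672 in recovery mice. Control replicate 3 was at 0.408 and the other control mice at 0.733 and 0.735. miR-27b-5p was below miR-27a-5p in every mouse, whereas among 3p products miR-27b-3p exceeded its a cluster paralog in 9 of 9 mice.

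**Figure D4:**
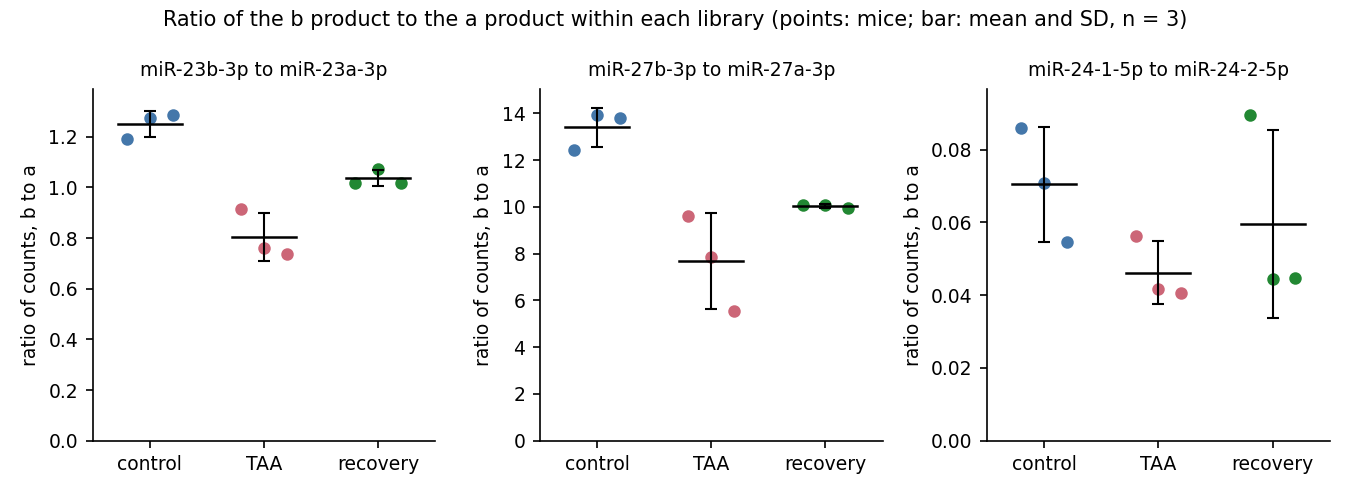
Ratio of the b product to the a product within each library (vertical axes from 0) for miR-23, miR-27 and the miR-24 5p products; points are mice and the bars give the mean and SD of n = 3. For the 3p products of miR-23 and miR-27 every TAA mouse lies below every recovery mouse, and every recovery mouse below every control mouse. The miR-24 5p groups overlap. How many other pairs of rows separate the groups was not counted.

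Because miR-27a-3p and miR-27b-3p share a seed, their counts were also added, a step chosen after seeing the data. On the TMM scale the sum had a log2 fold change of -0.17 (SE 0.086, FDR = 0.136) in TAA vs control, and under library totals it was 0.95 and turned direction. In recovery vs TAA it was -0.11 (SE 0.12, FDR = 0.494). The sum of miR-23a-3p and miR-23b-3p had a log2 fold change of 0.44 (SE 0.27, FDR = 0.194) in TAA vs control and -0.58 (SE 0.27, FDR = 0.122) in recovery vs TAA.

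The values of miR-3074-5p cannot be told apart from those of miR-24-3p. Below, capitals mark the 20 bases in which each row is the reverse complement of the other, for miR-24-3p with miR-3074-5p and then for miR-24-2-5p with miR-3074-2-3p.
miR-24-3p: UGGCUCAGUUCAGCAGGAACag
miR-3074-5p: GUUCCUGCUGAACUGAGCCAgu
miR-24-2-5p: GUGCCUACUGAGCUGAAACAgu
miR-3074-2-3p: UGUUUCAGCUCAGUAGGCAC
miR-24-3p exceeded miR-3074-5p by 12 to 28 counts, or 0.112% to 0.261% of its own count, in 9 of 9 mice. In control replicate 1, for example, the counts were 9978 and 9966. miR-24-2-5p exceeded miR-3074-2-3p by 2 to 16 counts, or 0.314% to 1.39%, in 9 of 9 mice, and at the b cluster miR-24-1-5p exceeded miR-3074-1-3p by 0 to 13 counts, in 8 of 9 mice. Whether the strand of a read was used is not given in the sources used here, and the fold changes of the miR-3074 rows are uncertain. With these rows removed, the TAA vs control log2 fold change of miR-24-3p was 0.48 (FDR = 0.0175).

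The other products of the hairpins were minor. miR-23a-5p had 0 to 3 counts and miR-23b-5p 1 to 9 counts per mouse, too few to be tested. miR-27a-5p was 1.76% to 4.69% of the reads of its hairpin and miR-27b-5p 0.129% to 0.224%, with no overlap. miR-27a-5p was at 17.1, 19.9 and 26.8 CPM in control, 26.0, 24.8 and 28.1 CPM in TAA, and 15.0, 17.9 and 13.01 CPM in recovery mice. It fell by 0.80 on the log2 scale in recovery vs TAA (SE 0.20, FDR = 0.0161), a call lost without recovery replicate 1 (FDR = 0.0759) or 3 (FDR = 0.0673). It was 1 of 5 other products tested that passed the FDR in that comparison, where 39.1% of all rows did. Under TMM none of the 5 passed in TAA vs control, where 58.3% of all rows did, or in recovery vs control, where 14.1% did.

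The miRNAs whose pattern over the 9 mice was most like that of the members were found among 94 miRNAs with a mean of at least 100 CPM, by the root mean square difference of centred log2 values. Nearest to the mean of miR-23a-3p and miR-27a-3p were miR-99b-5p (0.23), miR-744-5p (0.26) and miR-181a-5p (0.27). Nearest to the mean of miR-23b-3p and miR-27b-3p were miR-151-3p (0.10), miR-98-5p (0.14) and miR-185-5p (0.15). Nearest to miR-24-3p were let-7e-5p (0.13), miR-181a-5p (0.16) and miR-99b-5p (0.17), so that a pair of miRNAs stood in the lists of both the a cluster and miR-24-3p. miR-99b-5p, for instance, had a level of 713 ± 18.1 CPM in control, 1157 ± 121 CPM in TAA and 756 ± 57.8 CPM in recovery mice (SD, n = 3).

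Markers of several liver cell types moved in the same comparisons. The 5 biliary epithelial markers of the miR-200 family summed to 582 to 764 CPM in control, 3331 to 5534 CPM in TAA and 1240 to 1415 CPM in recovery mice, and 5 of 5 were higher in TAA vs control on both scalings, against 31.9% of all rows under TMM. Of the stellate cell and myofibroblast markers 3 of 5 were higher, miR-199a-3p, miR-199a-5p and miR-214-3p. The other 2 did not pass, miR-143-3p with a log2 fold change of -0.02 (FDR = 0.944) and miR-145a-5p with -0.25 (FDR = 0.272). The list summed to 25481 to 31110 CPM in control and 18031 to 39498 CPM in TAA mice. Of the leukocyte markers 3 of 4 were higher (187 to 208 against 262 to 310 CPM). Under library totals, where 71.9% of all rows were higher, 5 of 5 stellate cell and myofibroblast markers and 4 of 4 leukocyte markers were higher. As lower in TAA vs control, 26.4% of all rows passed under TMM. The hepatocyte markers, miR-122-5p and miR-122-3p, were 2 of 2 lower (261943 to 272282 against 70152 to 74355 CPM). Under library totals, however, miR-122-3p had a log2 fold change of -0.05 (FDR = 0.758). The endothelial markers, both miR-126a products, were 2 of 2 lower under TMM (8477 to 8951 against 5699 to 6894 CPM) and higher under library totals, and of the red cell markers 1 of 2 was lower (731 to 1266 against 183 to 407 CPM), miR-451a, which did not pass under library totals (FDR = 0.127). No marker was at 0 in all mice. In recovery mice the sums were 21870 to 35801 CPM for stellate cells, 141 to 217 CPM for leukocytes, 192009 to 315354 CPM for hepatocytes, 8347 to 9122 CPM for endothelium and 293 to 586 CPM for red cells. The part of these cell types in the levels and ratios of the members was not tested.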

How the data were processed

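Small RNA of 9 mouse livers was sequenced on an Illumina HiSeq instrument after TRIzol extraction and ligation-based library preparation. The authors used custom scripts to filter reads, aligned these with Bowtie (version 1.3.0) to the mouse genome mm10 and the mature miRNAs of miRBase, and deposited 1 table with unnormalized read counts and TPM values per mature miRNA. The deposited TPM values equalled count divided by column total times 1000000, within 5e-05, with no length term. The total per sample, 9071847 to 12983378 counts, limits the precision of low rows.

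From the counts, each pair of groups (6 samples) was tested with edgeR 4.0.16 in R 4.3.3: filterByExpr with a minimum count of 10, TMM, quasi-likelihood F test, and Benjamini-Hochberg adjustment over all rows tested (FDR). The SE of a log2 fold change is |log2 fold change| over the square root of F. "Rose" and "fell" are used at an FDR below 0.05, and the study's threshold adds a fold change of at least 2. Ratios used log2 of counts plus 0.5, with exact permutation tests (scipy 1.17.1). Fits were tested on simulated data.

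The members and lists were chosen with earlier results of these data known. Named miRNAs are the 7 members, the other products of their hairpins, the 3 rows most like each of 3 profiles, and cell type markers. Alternatives were DESeq2 1.42.0, DESeq2 size factors, library totals, limma 3.58.1 on log2(TPM + 1), other filters, all 9 samples, removal of antisense or miR-122 rows, a replicate block and leaving out each replicate. Groups came from the sample labels, which name no batch. Replicates differed by more than sampling noise. Sequences came from RefSeq (GRCm38.p6) and positions from GENCODE M21. The mRNA data of the study were not analysed here.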

Additional observations from a re-analysis of the deposited data

How the results depend on the processing

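The number of members that passed the FDR with a fold change of at least 2 was 0 in each comparison under TMM. In TAA vs control it was 4 by the FDR alone, 6 under library totals and 6 with limma on log2(TPM + 1), and in recovery vs TAA it was 2, 6 and 6. Of all rows tested, 58.3% passed by the FDR alone in TAA vs control, and 57.4% and 50% were called as higher under library totals and limma. In recovery vs TAA these shares were 39.1%, and 46.1% and 35.2% as lower. It stayed at 0 in both when any 1 replicate was left out, and in recovery vs control it was 0 under every alternative run. Directions turned under library totals and limma, in that order, for miR-27b-3p in TAA vs control (0.87 and 0.87), for miR-24-1-5p in TAA vs control (0.76 and 0.68), and for miR-3074-1-3p in TAA vs control (0.78 and 0.68) and recovery vs TAA (-0.84 and -0.70), and under library totals for the sum of miR-27a-3p and miR-27b-3p in TAA vs control (0.95). Leaving out 1 replicate turned miR-23b-3p in TAA vs control (lowest -0.21) and miR-27b-3p in recovery vs TAA (highest 0.055), neither called before or after. In recovery vs control it also turned miR-23a-3p (lowest -0.042), miR-24-3p and miR-3074-5p (highest 0.058) and miR-24-2-5p (highest 0.14), none of them called. Library totals and limma have no TMM factor, which differed between TAA and the other groups. The log2 ratio of miR-24-1-5p to miR-24-2-5p in recovery vs TAA, 0.30 in all mice, was -0.029 without recovery replicate 1 and ran from -0.029 to 0.48 when each replicate was left out. The 3p ratios of miR-23 and miR-27 kept their direction under every alternative run, but their size moved. The log2 difference for miR-27 ran from -1.02 to -0.62 in TAA vs control and from 0.21 to 0.61 in recovery vs TAA. For miR-23 it ran from -0.74 to -0.58 and from 0.31 to 0.47. Over all rows the study's threshold called 175 rows in TAA vs control (85 with a filter of 10 CPM), 109 in recovery vs TAA (60 with that filter and 207 under library totals) and 44 in recovery vs control (13 with that filter). Same-numbered mice were different animals, and their deviations correlated by -0.24 to 0.24, so the numbers were not taken as pairs. With a replicate block 0 members passed the FDR with a fold change of at least 2 in each comparison. By the FDR alone the block gave 0.0413 for miR-23a-3p and 0.108 for miR-27b-3p in TAA vs control and 0.0564 for miR-24-3p in recovery vs TAA. Over all alternatives the FDR in TAA vs control ran from 0.000142 to 0.567 for miR-27b-3p, from 0.000377 to 0.117 for miR-27a-3p and from 8.32e-05 to 0.0698 for miR-24-3p, and it ran from 0.000536 to 0.111 for miR-24-3p in recovery vs TAA. Counts under 100 per mouse limit the miR-24-1-5p values.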

Other observations

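Ratios within a cluster were computed after seeing the data and are given without a test. TAA replicate 2 stood apart in both clusters. Its ratio of miR-27a-3p to miR-23a-3p was 1.97, against 3.53 and 4.67 in the other TAA mice and 3.16 to 3.82 in control mice. Its ratio of miR-27b-3p to miR-23b-3p was 20.3, against 37.3 and 35.1 in the other TAA mice and 33.0 to 41.7 in control mice. The ratio of miR-23b-3p to miR-23a-3p in this mouse, 0.761, lay between those of the other TAA mice.

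The ratio of miR-24-3p to miR-27a-3p was 1.49 to 1.88 in control, 1.38 to 1.81 in TAA and 1.32 to 1.74 in recovery mice, and the 3 ranges overlapped. Its ratio to miR-27b-3p was 0.120 to 0.135 in control, 0.188 to 0.249 in TAA and 0.131 to 0.172 in recovery mice. Every TAA mouse was above all others, and how many other pairs of rows separate TAA in this way was not counted. The ratio of miR-24-3p to miR-24-2-5p was 11.6 to 13.5 in control, 13.2 to 14.7 in TAA and 11.6 to 14.1 in recovery mice.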
